A study of Mus musculus with 3 samples.

Results

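Healing mouse skin holds many macrophages, and a subset of them carries transcripts of *Lyve1*, *Cd163* or *Cbr2*. These cells, named here Lyve1/Cd163/Cbr2 macrophages after the genes of the rule although few held all 3, were taken from 3 droplet-based single-cell RNA libraries of skin wounds and were chosen by their counts of UMIs, the molecular barcodes by which copies of an mRNA molecule are counted once. A barcode had to hold at least 1000 UMIs with at most 10% from mitochondrial genes, at least 0.8% from 9 macrophage genes (*Lyz2*, *C1qa*, *C1qb*, *C1qc*, *Cd68*, *Adgre1*, *Fcgr1*, *Csf1r* and *Ms4a7*), less than 0.5% from the fibroblast genes *Dcn* and *Col1a2*, less than 1% from the neutrophil genes *S100a8* and *S100a9*, and no more than 2 UMIs of *Arg1*. Of the cells inside this gate, those with a sum of at least 3 UMIs over *Lyve1*, *Cd163* and *Cbr2* were the members, and those with a sum of 0 were the reference macrophages. The rule gave 1827 members among 8971 gated macrophages and 44693 barcodes, and it left 5070 reference cells and 2074 cells with 1 or 2 such UMIs that entered neither set. Members numbered 165, 1110 and 552 and reference cells 266, 3294 and 1510 on Days 3, 7 and 14.

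The study followed wound repair in C57BL/6J mice, an inbred strain, with 1 library each for Day 3, Day 7 and Day 14 after injury. The labels of these libraries name no transgene or drug. Per the methods, the mice were adult males, the tissue of several wounds was pooled, and the enzyme-dissociated cells were not sorted. The deposited design text calls the wounds incisional and the methods describe excision with a biopsy punch. Each day was 1 pool, so differences between days could not be tested, and the cells of a library are not replicates. Total depth was 38133650, 120940799 and 112713257 UMIs on Days 3, 7 and 14, spread over 5158, 22924 and 16611 barcodes, of which 3891, 18923 and 13803 barcodes passed the limits on UMIs and mitochondrial UMIs. The libraries shared 43 barcodes between Days 3 and 7, 19 between Days 3 and 14 and 111 between Days 7 and 14, and none of these barcodes was a member in both libraries.

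Macrophages of the skin come from cells that settle in the dermis and from blood monocytes that enter after injury. LYVE1, a receptor for hyaluronan, and CD163, the scavenger receptor for hemoglobin bound to haptoglobin, are commonly used to mark perivascular, resident-type macrophages, and such cells also tend to carry the folate receptor FOLR2, the mannose receptor CD206 (*Mrc1*) and the transglutaminase subunit factor XIII-A (*F13a1*). They are known for uptake of debris and proteins, while macrophages with much MHC class II present antigen and those fresh from monocytes carry *Ly6c2* and *Ccr2*. Residence and position in the dermis were not measured here, so the sets are described only by their transcripts.

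*Cbr2*, which encodes a carbonyl reductase, was the main source of the sum. It gave 97.6%, 93.2% and 93.8% of members at least 1 UMI on Days 3, 7 and 14. *Cd163* did so in 33.9%, 51.5% and 44.2% and *Lyve1* in 11.5%, 38.8% and 25%. Members that held only *Cbr2* UMIs made up 60.6%, 30.0% and 42.2%, and those with UMIs of all 3 genes 6.06%, 17.7% and 9.96%. In CPM, UMIs of a gene per 1000000 UMIs summed over the members of a library, *Lyve1* was at 24.8, 291 and 199, *Cd163* at 192, 399 and 322 and *Cbr2* at 766, 885 and 819. *Lyve1* was thus detected in a minority of the members at this depth, and in the fewest on Day 3. Of 3 markers that the rule did not use, *F13a1* was found in 93.3%, 98.2% and 97.5% of members, *Folr2* in 80.0%, 68.4% and 79.7% and *Stab1*, a scavenger receptor of sinus endothelium and macrophages, in 80.0%, 75.9% and 54.7%. After every cell was thinned to 1000 UMIs, *Folr2* was found in 36.4%, 33.6% and 42.6% of members and 8.27%, 8.41% and 9.80% of reference cells. The plain shares for the reference were 24.8%, 19.9% and 20.2% for *Folr2*, 74.8%, 59.3% and 58.0% for *F13a1* and 45.5%, 39.2% and 24.0% for *Stab1*. *F13a1* was thus found in most cells of both sets, and the member share of each of the 3 was higher in each library.

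**Figure D1:**
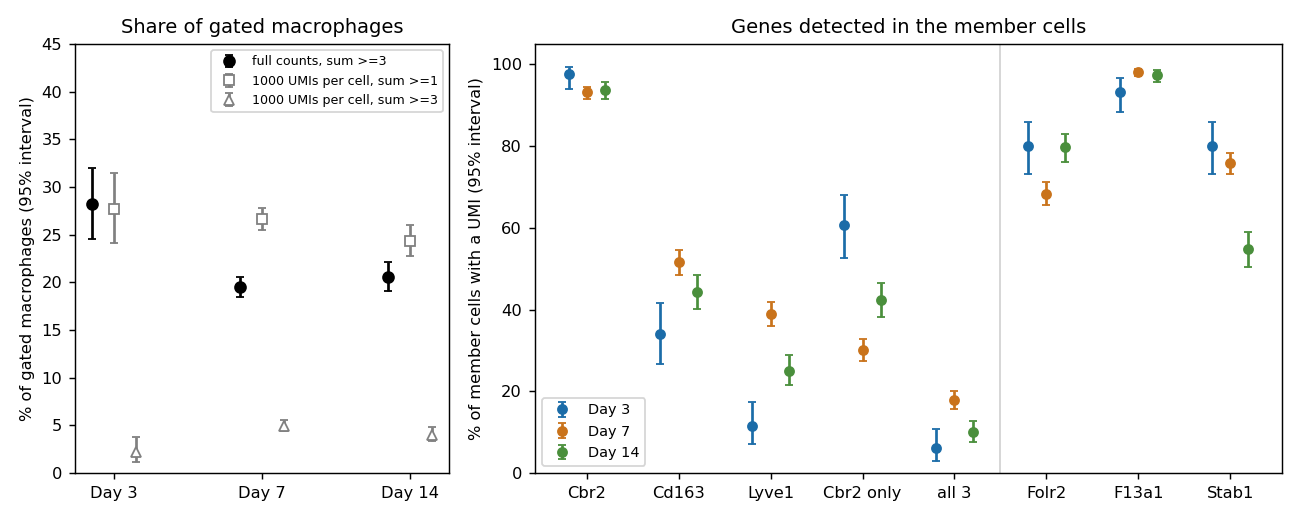
Left, the percent of gated macrophages that were members by library, from full counts with a sum of at least 3 (filled) and after thinning each cell to 1000 UMIs with a sum of at least 1 or at least 3 (open). Right, the percent of members with a UMI of each gene, with *Cbr2* only and all 3 rule genes beside them; bars are exact 95% binomial intervals for counting error, and *Lyve1* was found in 11.5%, 38.8% and 25% of members on Days 3, 7 and 14.

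Members were 28.2% (24.6 to 32.0%), 19.5% (18.4 to 20.5%) and 20.6% (19.0 to 22.1%) of gated macrophages on Days 3, 7 and 14 (exact Clopper-Pearson 95% intervals, which cover counting error only). The share was highest on Day 3, where the cells were also deepest. After thinning to 1000 UMIs, 2.22%, 4.91% and 4.02% still reached a sum of 3, and Day 3 became the lowest. With at least 1 UMI after thinning, the shares were 27.7% (24.1 to 31.5%), 26.7% (25.5 to 27.8%) and 24.4% (22.7 to 26.0%). These intervals overlapped for every pair of days. An order of the days is therefore not given. Relative to all cells that passed the limits on UMIs and mitochondrial UMIs, members were 4.24%, 5.87% and 4.0%. The gate itself left out 413, 1037 and 1 macrophages on account of *Arg1*. Without that limit the member shares were 24.2%, 18.4% and 20.6%.

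Members held more UMIs than the reference. Their medians were 6218, 3499 and 4185 UMIs against 4506.5, 2792 and 3734, and 2262, 1458.5 and 1610.5 genes against 1805, 1186 and 1411. The ratio of median UMIs was 1.38, 1.25 and 1.12. A cell with more UMIs reaches a sum of 3 more easily, so values from a reference drawn to the members' depth are given below as well. Mitochondrial UMIs made up 4.27, 3.38 and 2.73% of the summed UMIs of members and 4.18, 3.08 and 2.53% of those of the reference.

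Carry-over of free RNA was looked at in cells that should lack the 3 rule genes. The gates for these cells also set a limit of 0.2% of UMIs from the macrophage genes. Cells with more macrophage RNA were thus left out beforehand. The shares below therefore describe only the cells kept and cannot measure carry-over from macrophages. No cell of 484, 152 and 7 in a neutrophil gate and no cell of 2, 108 and 167 in a T cell gate reached a sum of 3, at median depths of 1445, 1187 and 1237 UMIs and of 2820.5, 2444.5 and 2330 UMIs. In a fibroblast gate of much deeper cells (median 42710.5, 10376 and 10175 UMIs), 0.694%, 0.348% and 0.239% did. After thinning to 1000 UMIs, *Cbr2* was found in 0%, 0.439% and 0.252% of fibroblast gate cells. The share in members was fixed by the rule and is not set against these. In the members, 92, 1109 and 551 cells on Days 3, 7 and 14 held 2 or more UMIs of fibroblast markers outside the rule. The part of carry-over in these UMIs was not tested.

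The sum was a continuous range with no gap at the threshold. Just inside it, cells with a sum of 3 (42, 304 and 150 cells) held *Folr2* at 250.3, 305 and 429 CPM. Just outside it, cells with a sum of 2 (59, 452 and 264 cells) held 271, 269 and 449 CPM. *Ccl8*, a chemokine that attracts monocytes and other leukocytes, was at 767, 2140.3 and 5482 CPM inside and 415, 1645 and 4809 outside. For *Cd74*, the MHC class II invariant chain, the values were 2528, 1077 and 7004 inside and 2589, 1625 and 8003 outside. Cells with more than 10 such UMIs (22, 111 and 57 cells) held *Folr2* at 609.8, 586 and 865, *Mrc1* at 2018, 3405 and 3716 and *Cd74* at 1649.5, 679.5 and 2987 CPM. In each library *Folr2* and *Mrc1* were highest in that last class, and *Il1b*, the inflammatory cytokine interleukin 1 beta, was lowest there, at 206, 176 and 119 CPM against 2187, 646 and 967 at a sum of 0. These values describe the range and were not tested, since the rule used the sum.

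**Figure D2:**
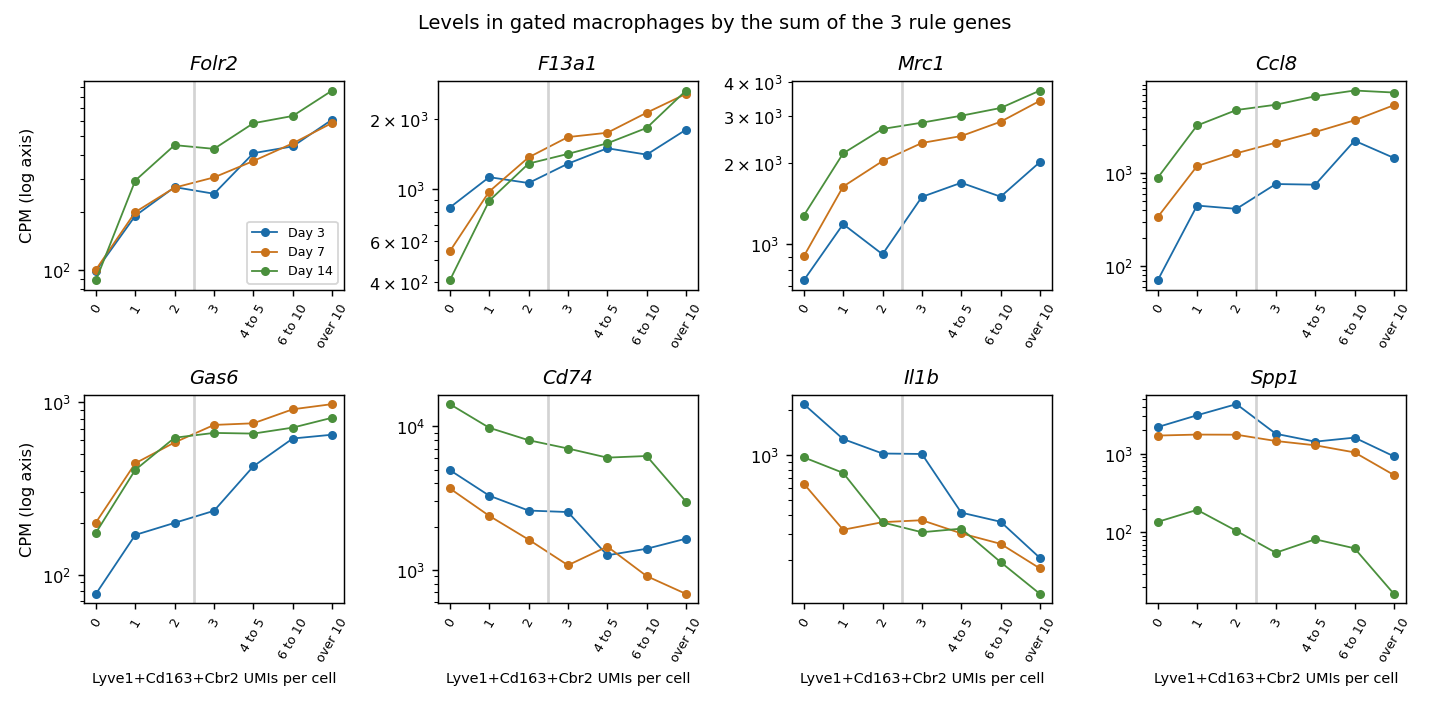
CPM (log axis) of 8 genes in gated macrophages, by the number of *Lyve1*, *Cd163* and *Cbr2* UMIs per cell on the horizontal axis, 1 line per library; the grey line marks the threshold of 3. *Folr2* on Day 14 went from 88.5 CPM at a sum of 0 to 865 CPM above 10, while *Il1b* went from 967 to 119 CPM.

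Members and reference cells were then compared over all genes, with UMIs summed per library and set, so that n is 3 libraries per set and the residual is how the difference varied between the 3 days. Genes of the rule were not tested. By edgeR's quasi-likelihood test with the library as a block, 581 of 10248 genes were higher in members and 730 lower at a Benjamini-Hochberg adjusted p under 0.05, so that 12.8% of tested genes were called (5.67% higher, 7.12% lower). Scaling by total UMIs alone moved the median log2 fold change of all genes from 0.00 to 0.11 and gave 872 higher and 552 lower. The calls of the genes named here for members against reference held under that scaling except that of *Fcgr4*. With the reference drawn to the members' total UMIs (141, 1110 and 552 cells with medians of 5806, 3497 and 4186 UMIs), 466 genes were higher and 597 lower. DESeq2 called 280 higher and 439 lower.

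The genes with the highest fold changes were read among those called with the same sign in all 3 libraries and at least 50 CPM in the mean of either set. *Fcna* (ficolin A, a lectin of the complement pathway, chr2:25624666-25628030 in mm10) was at 23.9, 150.3 and 122 CPM in members and 10.6, 13.1 and 6.72 in the reference of Days 3, 7 and 14. All 3 member values lay above all 3 reference values, with a log2 fold change of 3.43 ± 0.26 (SE, n = 3 libraries; adjusted p = 2.19e-07). *Ccl8* (chr11:82115185-82116799) was at 1349.9, 3260.4 and 6881 CPM against 70.4, 338 and 895. Here too the sets did not overlap, and the log2 fold change was 3.32 ± 0.20 (adjusted p = 2.98e-08). *Ednrb* (chr14:103814625-103844402), the endothelin receptor type B, was at 401, 616 and 331 CPM against 66.6, 66.6 and 29.3, again without overlap and at 3.04 ± 0.16 (adjusted p = 1.85e-08). *Folr2* itself (chr7:101839988-101857194) was at 425, 409.9 and 600.1 CPM against 99.2, 101 and 88.5, a log2 fold change of 2.20 ± 0.15 (adjusted p = 8.15e-08). *Folr2* was thus also separate in every library. The others were *Bmp2* (a bone morphogenetic protein) at 2.56, *Npl* (an enzyme of sialic acid breakdown) at 2.34, *C4b* (complement component C4) at 2.32, the ETS factor *Etv1* at 2.31, *Ltc4s* (leukotriene C4 synthase) at 2.19 and *Ccl7* (a monocyte chemokine) at 2.12. Of all tested genes, 12.6% had member and reference values that did not overlap over the 3 libraries.

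The genes lower in members by size were led by *Mmp12*, macrophage elastase (chr9:7344381-7369499). It was at 0.887, 33.3 and 2.86 CPM in members and 40.1, 311 and 294 in the reference. The sets did not overlap, the Day 3 member value rests on 1 UMI, and the log2 fold change was -4.24 ± 0.37 (adjusted p = 7.59e-07). *Ear2*, an eosinophil-type ribonuclease that macrophages can also express, was at 1.77, 8.61 and 25.7 CPM against 17.4, 68.3 and 457. Its members were lower in every library, although the Day 14 members lay above the Day 3 reference, and its log2 fold change was -3.78 ± 0.23 (adjusted p = 2.98e-08). *Il7r*, the interleukin 7 receptor, was at 2.66, 16.0 and 11.4 CPM against 43.9, 74.5 and 111 with no overlap, a log2 fold change of -2.87 ± 0.22 (adjusted p = 2.29e-07). *Napsa* (an aspartic protease, -3.18), *Gpr141* (-2.75), *Sirpb1c* (-2.72), *Tnip3* (an inhibitor of NF-kappaB signalling, -2.25), *Lyz1* (a lysozyme, -2.18), *Slamf9* (-2.16) and *Ly6c2* (-2.11) were the other 7. *Lyz1* passed by edgeR (adjusted p = 0.00107) and not by DESeq2 (adjusted p = 0.0537), and *Ly6c2* likewise (adjusted p = 0.00206 and 0.494).

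**Figure D3:**
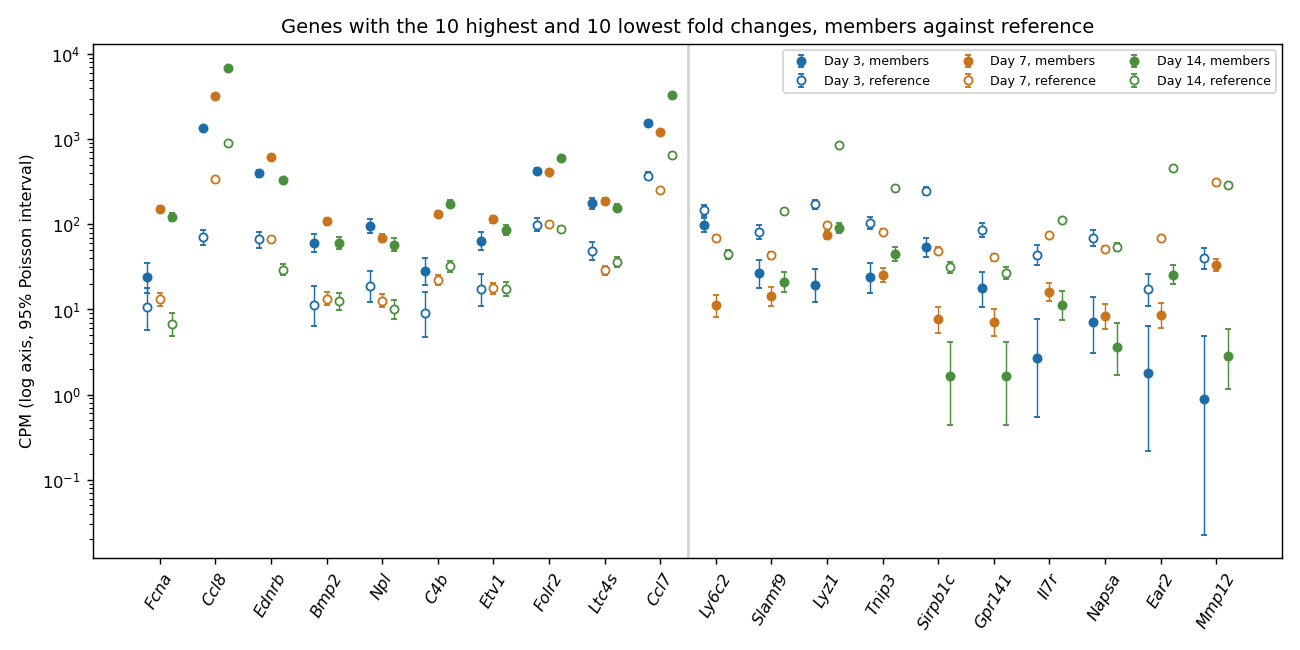
CPM (log axis) in members (filled) and reference macrophages (open) of each library for the 10 genes with the highest and the 10 with the lowest fold changes; bars are exact 95% Poisson intervals for counting error, and a value of 0 (*Ly6c2* in the Day 14 members) is not drawn. *Ccl8* reached 6881 CPM in the Day 14 members against 895 in the reference, and *Mmp12* was at 2.86 against 294.

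A list of 26 genes commonly tied to resident-type macrophages was followed as a group. Of 23 that could be tested, 22 were higher in members and 0 lower, with a median log2 fold change of 1.51. Of all tested genes 5.67% were higher and the median was 0.00. By DESeq2 17 of the 23 were higher. With the reference drawn to the members' depth 19 of 22 were higher, and after thinning to 1000 UMIs 18 of 22. For each test after thinning both sets were redrawn by the thinned counts. This gave 13, 280 and 108 members and 423, 4181 and 2031 reference cells. The thinned reference thus took in cells that held rule-gene UMIs at full depth. A fit without the library term called 3 of the 23. *Mrc1*, *F13a1*, *Wfdc17* and *Gas6* of this list were named by the study for a macrophage subcluster of these same libraries. The study also named the rule gene *Cbr2* for that subcluster and linked CCL8 signalling mainly to it. *Folr2*, *F13a1* and *Stab1* were given as markers of the cells, so the counts for this list are not independent evidence. *Mrc1* was at 1658, 2699.8 and 3111 CPM against 734, 901 and 1276. The members stood above the reference in each library and the sets did not overlap (log2 fold change 1.25 ± 0.13, adjusted p = 5.36e-06). *F13a1* was at 1488, 1956 and 1755 against 836, 542 and 407 CPM, and *Gas6*, a ligand of the receptors AXL and MERTK, at 484, 824 and 692 against 77.2, 200.01 and 175. Neither overlapped, with log2 fold changes of 1.51 ± 0.18 and 2.08 ± 0.15 (adjusted p = 2.82e-05 and 9.90e-08). *Stab1* was at 536, 582 and 216 CPM against 186, 235 and 88.0. It was higher in members within each library, but the Day 14 members lay below the Day 7 reference. *Pf4* (platelet factor 4, 1.18), *Selenop* (a selenium carrier, 1.09), *Fcgrt* (the neonatal Fc receptor, 1.83), *Clec10a* (a galactose-type lectin, 2.0) and *Igf1* (insulin-like growth factor 1, 1.34) were higher as well. *Trf*, the iron carrier transferrin, did not pass (log2 fold change 0.27 ± 0.15, adjusted p = 0.291), and *Timd4*, *Cd209g* and *Vsig4* had too few UMIs for the test.

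Some members of that list rested on later libraries. *Cd209f*, a C-type lectin, was at 0.887, 40.7 and 105 CPM in members and 1.51, 0.782 and 2.72 in the reference. Day 3 gave 1 UMI in members and 2 in the reference, so the log2 fold change of 5.14 ± 0.31 came from Days 7 and 14. *Cd209d* had the same pattern at 0.887, 20.3 and 132 against 2.27, 3.33 and 19.0 CPM (2.53 ± 0.23). *Ccl24*, an eosinophil chemokine, had the lower value in members on Day 3 and the higher on Days 7 and 14, at 57.6, 142 and 258 against 77.2, 34.8 and 84.6 CPM (1.22 ± 0.27). These 3 passed by edgeR (adjusted p = 2.98e-08, 1.23e-06 and 0.00567) and not by DESeq2 (adjusted p = 0.0743, 0.429 and 0.631).

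The RefSeq promoter table (GRCm38.p6, the same assembly as mm10) was read for genes of this group because the factor *Maf* was among them. Below are the 250 bases before the RefSeq start of *Ccl8*, which had one of the 10 highest fold changes, of *Stab1* and *F13a1* and of the rule gene *Cd163*, all of which end upstream of the gene in GENCODE. Capitals mark TGCTGA or its reverse complement TCAGCA, the core of a MAF recognition half-site.
Ccl8 (chr11:82114935-82115184, plus strand): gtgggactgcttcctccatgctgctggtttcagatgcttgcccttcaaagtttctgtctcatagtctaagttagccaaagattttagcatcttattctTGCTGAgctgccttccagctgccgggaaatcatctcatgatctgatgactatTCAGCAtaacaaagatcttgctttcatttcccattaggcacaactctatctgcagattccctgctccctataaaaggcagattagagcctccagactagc
Stab1 (chr14:31168642-31168891, minus strand): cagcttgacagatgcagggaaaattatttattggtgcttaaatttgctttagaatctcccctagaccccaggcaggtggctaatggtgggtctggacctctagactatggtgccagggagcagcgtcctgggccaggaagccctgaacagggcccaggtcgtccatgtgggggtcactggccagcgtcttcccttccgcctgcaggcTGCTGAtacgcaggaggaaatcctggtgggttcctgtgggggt
F13a1 (chr13:37050245-37050494, minus strand): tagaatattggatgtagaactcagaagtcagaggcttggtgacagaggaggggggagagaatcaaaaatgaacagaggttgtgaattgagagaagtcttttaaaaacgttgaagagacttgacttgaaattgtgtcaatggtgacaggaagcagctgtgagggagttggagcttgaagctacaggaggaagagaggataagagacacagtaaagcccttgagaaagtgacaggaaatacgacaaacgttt
Cd163 (chr6:124304401-124304650, plus strand): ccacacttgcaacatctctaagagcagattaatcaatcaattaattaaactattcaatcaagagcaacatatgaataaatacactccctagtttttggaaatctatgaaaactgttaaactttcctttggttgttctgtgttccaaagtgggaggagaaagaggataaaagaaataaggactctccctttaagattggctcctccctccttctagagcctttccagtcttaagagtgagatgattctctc
The hexamer was found 2 times before *Ccl8*, 1 time before *Stab1* and not before *F13a1* or *Cd163*. Of the other windows read, that of *Fcna* held 2 matches and that of *Ednrb* 1. *Folr2* had windows at separate RefSeq starts, each with 1 match. Those of *Gas6*, *Cd209f* and *Cbr2* held none. It was present on either strand in 15.1% of 623 such windows of genes higher in members, in 10.9% of 736 windows of genes lower in members, in 12.5% of 10350 windows of tested genes and in 16.1% of all 32851 windows. The ETS core GGAAGT (or ACTTCC), which PU.1 can bind, was in 24.2%, 24.9%, 24.7% and 19.7% of the same windows. These are matches of letters only. The table had no entry for *Lyve1*.

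Receptors for uptake did not all go the same way. Of 21 tested genes in a scavenger and phagocytosis list, 9 were higher and 4 lower (median log2 fold change 0.33, or 0.15 without Day 14 and 0.16 with no limit on *Arg1*). With *Folr2*, *Stab1*, *Mrc1*, *Fcgrt* and *Colec12*, the sialic acid lectin *Siglec1* (1.21), the coreceptor *Nrp1* (1.09), the efferocytosis kinase *Mertk* (0.45) and *Cd5l* (1.79) were higher. *Axl*, the sister kinase of *Mertk*, was at 42.6, 26.8 and 33.5 CPM against 96.1, 89.4 and 101. It was lower in members in each library without overlap (-1.65 ± 0.15, adjusted p = 1.23e-06). The Fc receptor *Fcgr4* (-0.60), the integrin subunit *Itgb2* (-0.55) and *Lrp1* (-0.52) were lower as well. *Msr1*, *Cd36*, *Scarb1*, *Scarb2*, *Clec4n*, *Fcgr2b*, *Fcgr3* and *Itgam* did not pass. Of the 4 lower genes only *Axl* was still called without Day 14, and *Axl* and *Fcgr4* without Day 7.

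Among 13 tested genes of heme and iron handling, 4 were higher and 1 lower. *Hmox1*, which breaks down heme, was at 2004, 1664 and 1269 CPM in members and 857, 1144 and 405 in the reference. Its sets did not overlap (1.03 ± 0.16, adjusted p = 3.12e-04). *Tfrc*, the transferrin receptor (1.26), *Ncoa4*, which delivers ferritin for breakdown (0.71), and *Blvrb*, a biliverdin reductase (0.69), were higher, and the ferritin heavy chain *Fth1* was lower (-0.42). *Slc40a1*, the iron exporter ferroportin, was at 9.76, 75.6 and 55.5 CPM against 3.03, 75.3 and 28.8 and did not pass (adjusted p = 0.285). The call of *Fth1* was lost without Day 7 and without Day 14.

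Of 16 tested chemokine and receptor genes 6 were higher and 2 lower, with a median of 0.35, and 8 did not pass. The median was 0.70 without Day 14 and 0.25 without Day 7. The higher ones included *Ccl2*, *Ccl7*, *Ccl8* and *Ccl12*, which attract monocytes. Without Day 3, 8 were higher and 4 lower. *Ccl7* was at 1545, 1207 and 3305 CPM against 375, 251 and 647, and *Ccl2* at 1188, 782 and 1697 against 325, 178 and 376. Both sets were separate, at 2.12 ± 0.13 and 1.96 ± 0.13 (adjusted p = 2.98e-08 and 6.44e-08). *Ccl12* was higher too (1.44), beside *Ccl8*, *Ccl24* and *Pf4*. *Cx3cr1*, the fractalkine receptor, was lower at 65.6, 36.6 and 24.5 CPM against 128, 132 and 81.4 (-1.66 ± 0.17, adjusted p = 3.45e-06), and *Cxcl16* was lower (-0.86). *Ccl2*, *Ccl7*, *Ccl8* and *Ccl12* belong to a group of neighbouring, similar genes, and how the counting treated reads shared between copies is not given in the sources used here.

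In the list of growth factors and matrix genes, 10 of 20 tested were higher and 6 lower (median 0.57). *Igf1* was at 159, 576 and 574 CPM against 24.98, 294 and 227. It was higher in each library, although the Day 3 members lay below the reference of Days 7 and 14 (1.34 ± 0.20, adjusted p = 1.96e-04). *Il10*, the anti-inflammatory interleukin 10, was at 176, 170.1 and 197 CPM against 68.9, 64.7 and 84.9. These sets were narrow and apart (1.21 ± 0.13, adjusted p = 5.69e-06). *Pdgfc* (1.43), *Hbegf* (1.13), *Ang* (1.02), *Timp2* (0.79), *Grn* (0.55) and *Mmp9* (1.54) were higher. *Vegfa*, the angiogenic factor, was lower at 113, 78.5 and 81.6 CPM against 412, 164 and 122 (-1.25 ± 0.18, adjusted p = 1.06e-04), as were *Pdgfb* (-1.53), *Mmp14* (-1.11), *Il1rn* (-1.02) and *Tgfbi* (-0.86). *Tgfb1* did not pass (-0.34 ± 0.13, adjusted p = 0.102). Of 8 tested complement genes 5 were higher, among them *C4b*, *Cfb* (1.33), *C5ar1* (0.54) and *Cfp* (0.46), and *C3* was lower (-0.83). Without Day 7, 3 complement genes were higher.

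All 7 tested genes of the MHC class II list were lower in members, with a median log2 fold change of -1.84. *Cd74* was at 1657, 1090.2 and 5941 CPM in members and 4955, 3692 and 14277 in the reference. The members were lower in each library, and the values overlapped between libraries, with both sets highest on Day 14 (-1.64 ± 0.13, adjusted p = 2.19e-07). *H2-Aa* was at 801, 794 and 4522 against 2882, 2887 and 10584 CPM (-1.75 ± 0.14, adjusted p = 2.57e-07), and *Ciita*, the transactivator of these genes, at 8.87, 8.14 and 12.6 against 26.5, 29.0 and 40.9 (-1.84 ± 0.18, adjusted p = 3.78e-06). *H2-Ab1*, *H2-Eb1*, *H2-DMa* and *H2-DMb1* lay between -1.98 and -1.49. Cell by cell, *Cd74*, *H2-Aa*, *H2-Ab1* and *H2-Eb1* together took a median of 0.0186%, 0.0369% and 0.947% of the UMIs of a member on Days 3, 7 and 14. In the reference the medians were 0.124%, 0.156% and 3.69%. Both sets were wide on Day 14, when the upper quartile of members was 2.59% and the lower quartile of the reference 1.57%.

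Genes of monocytes and inflammation were lower more often than higher. Of 21 tested, 11 were lower and 1, *Tnf* (0.47, adjusted p = 0.0311), was higher. The *Tnf* call was lost by DESeq2, without Day 7, with at least 5 UMIs of the rule genes and after thinning, while without Day 14 the list had 3 higher. *Il1b* was at 486, 287 and 253 CPM in members against 2187, 646 and 967. No member value reached a reference value (-1.86 ± 0.17, adjusted p = 1.51e-06). *Fn1* (-1.99), *Thbs1* (-1.25), *Plac8* (-1.20), *Chil3* (-1.19), *Ptgs2* (-0.99), *S100a4* (-0.85) and *Msrb1* (-0.51) were lower. *Ccr2*, the receptor by which monocytes leave the marrow, was at 1252, 381 and 177 CPM against 1419.9, 519 and 469. Its members were lower in each library with much overlap between days (-0.77 ± 0.19, adjusted p = 0.0104), and without Day 14 the call was lost (-0.40, adjusted p = 0.108). *Cxcl2*, *Cxcl3*, *Ccl3*, *Ccl4*, *Il1a*, *Il6*, *Nlrp3*, *Slfn4* and *Vcan* did not pass.

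Genes used to mark alternative activation went both ways, with 5 of 10 tested higher and 5 lower. *Mrc1*, *Clec10a*, *Ccl24*, *Mgl2* (0.52 ± 0.15) and the interleukin 4 receptor *Il4ra* (0.75) were higher. *Ear2*, *Lyz1*, *Tgm2* (-1.28), *Socs2* (-1.43) and *Retnla* were lower. *Retnla*, a secreted resistin-like protein, was at 168, 254 and 1258 CPM in members and 209.7, 337 and 4153 in the reference. The Day 3 member value came from few cells. It was at 825 CPM in the 22 members with more than 10 rule-gene UMIs and at 0 to 2.95 CPM in those with fewer. On Day 14 *Retnla* was at 3280 CPM in the 57 members with more than 10 and at 610 to 1230 CPM in those with fewer. The gap between members and reference was widest on Day 14. The log2 fold change was -0.96 ± 0.22 (adjusted p = 0.00637), and the call was lost without Day 14 (-0.46, adjusted p = 0.0808) and with the reference drawn to the members' depth (-0.60, adjusted p = 0.432). *Mgl2* likewise did not pass at matched depth (0.29, adjusted p = 0.294). Without Day 14, 3 genes of this list were lower, DESeq2 gave 3 higher and 2 lower, and at matched depth 4 were higher and 3 lower.

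In a list of lipid handling and *Trem2* genes, 7 of 16 tested were lower and 1, the protease *Ctsb* (0.49), was higher. *Spp1*, osteopontin, was at 1463, 1156 and 61.6 CPM against 2192, 1709.8 and 136. The members were lower in each library, and Day 14 was low in both sets (-0.84 ± 0.14, adjusted p = 6.63e-04). *Cd9* (-1.98), *Gpnmb* (-1.88), *Fabp4* (-1.73), *Lpl* (-1.58), *Fabp5* (-1.01) and *Lgals3* (-0.95) were lower. *Trem2* itself was at 259, 304 and 162 CPM against 226, 399 and 204 and did not pass (-0.30 ± 0.14, adjusted p = 0.207). Of 8 tested genes that mark late wound macrophages 4 were lower, *Slamf9*, *Cd72* (-1.80), *Cx3cr1* and *Slamf7* (-0.69), and 1, *Il10*, was higher, with 2 higher without Day 3. The call of *Ctsb* was lost without Day 7 and without Day 14.

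Of 26 tested transcription factors 7 were higher and 4 lower. Without Day 14 the counts were 3 and 3, and without Day 7 or by DESeq2 they were 4 and 2. *Maf*, which drives resident macrophage programmes, was at 2596, 2214 and 930.5 CPM in members and 1058, 958 and 292 in the reference. Members were higher in each library, with Day 14 low in both sets (1.29 ± 0.13, adjusted p = 3.67e-06). Among the others, *Klf2* (1.16), *Tfec* (0.81), *Cebpd* (0.71), *Tcf4* (0.55) and *Mef2c* (0.50) were higher, and *Bhlhe40* (-1.54), *Runx3* (-1.49), *Pparg* (-1.03) and *Nr1h3* (-0.81) lower. *Spi1*, which encodes PU.1, and *Irf8* did not pass (-0.28 ± 0.12 and 0.02 ± 0.12).

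Dividing, stressed and interferon-exposed cells were looked for among the members with 3 lists. Of 15 tested cell cycle genes 4 were higher (*Mki67*, *Top2a*, *Cdk1* and *Ube2c*) and 0 lower. *Mki67* was at 17.7, 56.7 and 64.9 CPM against 3.03, 30.2 and 39.3, a log2 fold change of 0.81 ± 0.18 (adjusted p = 0.00591), and its Day 3 values rest on 20 and 4 UMIs. After thinning to 1000 UMIs, with both sets redrawn and fewer members, 3 of the 15 genes could be tested and 0 were called. Of 14 immediate-early and heat shock genes, which rise when tissue is dissociated, 5 were higher, namely *Jun* (0.77), *Egr1* (0.99), *Hspa1a* (0.57), *Hspa1b* (0.63) and *Ier2* (0.44). Of 11 interferon genes 4 were higher, namely *Ifit1* (0.77), *Ifit2* (0.59), *Rsad2* (0.65) and *Ly6e* (0.86). Without Day 7, 2 cell cycle, 2 immediate-early or heat shock and 1 interferon gene were higher, and DESeq2 gave 2, 4 and 2. The part of dissociation in these values was not tested.

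**Figure D4:**
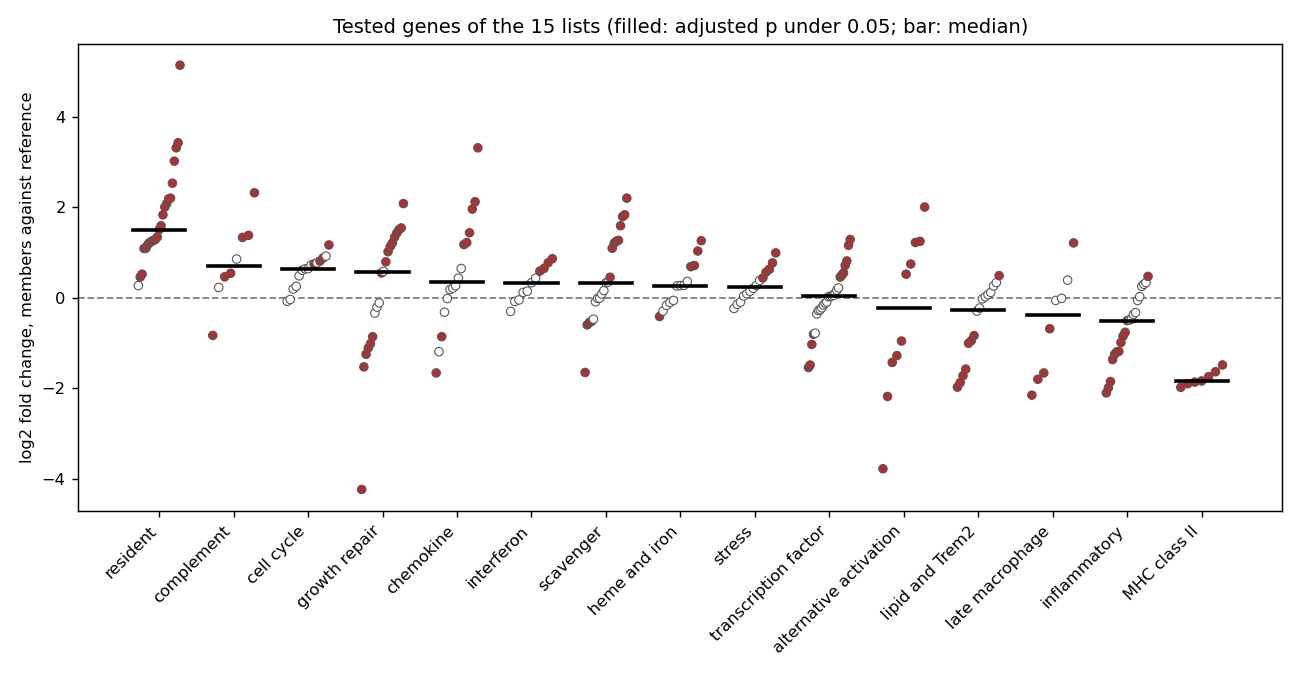
Log2 fold change of members against reference macrophages (vertical axis) for each tested gene of 15 lists, filled where the edgeR adjusted p was under 0.05; black bars are list medians and the dashed line is the median of all tested genes. The resident list (median 1.51) and the MHC class II list (median -1.84) lay farthest from it.

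Markers of other cell classes were set beside these values. The 7 fibroblast markers outside the rule summed to 325, 2833 and 3359 CPM in members and 358, 2951 and 3214 in the reference, with higher values on Days 7 and 14 in both sets. The 5 keratinocyte markers were at 2.66, 8.14 and 312 against 0, 18.3 and 162 CPM. *Pdpn* and the 5 other lymphatic endothelial markers, relevant because lymphatic vessels also express *Lyve1*, were at 67.4, 75.9 and 115 against 102, 95.9 and 51.5 CPM, and of the 28, 1215 and 487 *Lyve1* UMIs of members 7, 64 and 16 lay in cells with at least 2 UMIs of these markers. The 6 T and NK cell markers were at 0, 4.31 and 2.04 CPM and the 8 dendritic cell markers at 9.76, 22.5 and 49.4 against 59.8, 65.1 and 107 in the reference. The part of such cells in the differences between members and reference, those of MHC class II genes included, was not tested. Doublets were not called. Without cells in which markers of other classes, those of fibroblasts left aside, took 0.1% or more of UMIs, which left 164, 1056 and 529 members, 581 genes were higher and 732 lower.

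Members also differed among themselves. Those with a *Lyve1* or *Cd163* UMI (65, 777 and 319 cells) were compared with those that held *Cbr2* UMIs only (100, 333 and 233 cells) by the same edgeR test. Of 7898 tested genes 44 were higher and 32 lower, or 0.962% in all (0.557% higher, 0.405% lower). Between members and reference 12.8% were called, but that test summed more cells and left out those with 1 or 2 rule-gene UMIs. The 2 shares therefore do not measure how alike the sets were. Without Day 7, the largest library, 7 were higher and 1 lower, and DESeq2 called 6 and 5, with no adjusted p given for 6604 genes. *Cd209f* was at 2.29, 57.4 and 175 CPM in members with *Lyve1* or *Cd163* and 0, 5.89 and 15.8 in *Cbr2*-only members. Day 3 gave nearly no UMIs, and the difference of 3.39 ± 0.25 on the log2 scale (adjusted p = 8.81e-12) came from the other libraries. *Ednrb* was at 649, 721 and 429.8 against 243, 399.9 and 205 CPM. It was higher in each library without overlap (1.08 ± 0.11, adjusted p = 7.76e-08). *Fcna* (1.85), the growth factor receptor *Fgfr1* (1.33) and the metallothionein *Mt2* (1.0) were the other leading genes.

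On the lower side, *Cx3cr1* was at 16.0, 15.6 and 18.2 CPM in members with *Lyve1* or *Cd163* against 97.1, 80.3 and 32.4 in *Cbr2*-only members. The sets did not overlap (-1.97 ± 0.23, adjusted p = 1.11e-06), and without Day 7 the gene did not pass (adjusted p = 0.293). The interferon-induced chemokine *Cxcl10* (-1.21), *Syngr1* (-0.86), *Lpcat2* (-0.85) and the phosphatase *Dusp2* (-0.84) followed. Of the resident list 11 of 22 tested genes were higher and 0 lower, with a median of 0.41. *F13a1* (0.38 ± 0.09), *Gas6* (0.49 ± 0.11) and *Ccl8* (0.52 ± 0.09) passed, while *Folr2* (0.22 ± 0.10, adjusted p = 0.474), *Mrc1* (0.24 ± 0.09, adjusted p = 0.245) and *Stab1* (-0.11 ± 0.11, adjusted p = 0.843) did not. Of 7 MHC class II genes 4 were lower, with *Cd74* at 1262, 1001 and 5237 against 1907, 1276 and 6837 CPM (-0.44 ± 0.08, adjusted p = 0.00265). Of 16 lipid and *Trem2* genes 5 were lower, *Trem2* among them (-0.54 ± 0.12, adjusted p = 0.0102). Of 9 tested alternative activation genes 4 were higher and 0 lower, *Retnla* among the higher (1.45 ± 0.35, adjusted p = 0.0301). *Retnla* was at 432, 230 and 1861 against 0, 305 and 489 CPM, so it was lower on Day 7. By DESeq2 1 gene of that list was higher, and without Day 7 the count was 0. *Hmox1* was higher at 3007, 1654 and 1721 against 1369, 1683 and 695 CPM (0.79 ± 0.14, adjusted p = 7.74e-04). On Day 7 it was nearly equal in both, and the call was lost by DESeq2. Without Day 7, 3 genes of the resident list passed and none of the MHC class II or lipid and *Trem2* lists did. The medians of the resident and MHC class II lists were then 0.45 and -0.47, beside 0.41 and -0.44 with all libraries, and that of the lipid and *Trem2* list was -0.11 beside -0.27. By DESeq2 3 resident genes were higher, 3 MHC class II genes lower and no lipid or *Trem2* gene was called.

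Markers of other cells differed between the subsets too. Lymphatic endothelial markers summed to 98.3, 69.8 and 178 CPM in members with *Lyve1* or *Cd163* and 47.8, 88.4 and 35.2 in *Cbr2*-only members, so the former were higher on Days 3 and 14 and lower on Day 7. On Day 3 *Pdpn* was the only one of the 6 above 0 in either subset. Dendritic cell markers were at 9.15, 23.8 and 75.8 against 10.1, 19.9 and 15.8 CPM and pericyte markers at 0, 21.6 and 8.74 against 8.69, 28.7 and 55.6. The Day 14 pericyte value of *Cbr2*-only members came from 60 UMIs in 13 cells. Only 1 of these cells held 2 or more, so that value rests mostly on 1 cell. The part of such other cells in the differences between the subsets was not tested.

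Between days the members could only be compared library by library. The intervals below are exact 95% conditional intervals for counting error, and they do not cover differences between mice. Among 3309 genes with at least 10 UMIs in both libraries and 50 CPM in 1 of them, 66 were at least 2-fold higher on Day 7 than on Day 3 with an interval beyond 0 (1.99%) and 204 lower (6.17%), and the median log2 ratio was -0.24. Without the 50 most abundant genes in the total the counts were 111 and 111. From Day 7 to Day 14, 90 of 3094 genes were higher (2.91%) and 63 lower (2.04%). Scaling by the median of ratios gave 133 and 42 there, and leaving out the 50 most abundant genes 69 and 82.

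Monocyte and interferon transcripts were lower in the Day 7 members than in those of Day 3. The log2 ratio was -3.92 (-4.49 to -3.39) for *Chil3*, a chitinase-like protein, -3.25 (-3.51 to -2.99) for *Ms4a4c* and -3.14 (-3.67 to -2.64) for *Ly6c2*. In the reference the ratios of these 3 were -2.82 (-3.08 to -2.56), -2.22 (-2.37 to -2.08) and -1.08 (-1.31 to -0.84). Of 11 interferon genes 9 were at least 2-fold lower, with a median of -1.75 in members and -1.82 in the reference. *Fcna* was higher on Day 7 by 2.65 (2.09 to 3.26) in members against 0.31 (-0.49 to 1.22) in the reference. The iron exporter *Slc40a1* was higher by 2.95 (2.10 to 3.97) in members and 4.64 (3.27 to 6.52) in the reference, and *Igf1* by 1.86 (1.64 to 2.09) and 3.56 (3.06 to 4.10). The Day 3 reference value of *Slc40a1*, 3.03 CPM (0.825 to 7.75), rests on fewer than 10 UMIs. *Col1a1*, *Col3a1* and *Sparc*, matrix genes of fibroblasts, led the higher ratios at 3.18 (2.94 to 3.42), 3.11 (2.84 to 3.40) and 2.92 (2.58 to 3.28). In the reference they were at 3.23 (3.02 to 3.45), 2.72 (2.50 to 2.94) and 2.91 (2.61 to 3.24), and how much of this was carried over from fibroblasts was not tested.

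From Day 7 to Day 14 antigen presentation genes were higher in both sets. Of 7 MHC class II genes 6 were at least 2-fold higher in members, with a median of 2.35 against 1.87 in the reference, and *H2-Eb1* led with 2.68 (2.61 to 2.76) against 2.05 (2.03 to 2.08). The lectin *Mgl2* was higher by 3.18 (2.97 to 3.39) and 3.24 (3.08 to 3.41) in members and reference. *Hpgd*, which inactivates prostaglandins, was higher by 3.14 (2.80 to 3.49) and 1.96 (1.76 to 2.17). *Spp1* was lower, at -4.23 (-4.47 to -4.00) in members and -3.65 (-3.75 to -3.55) in the reference. *Fn1*, fibronectin, had ratios of opposite sign, -1.90 (-2.13 to -1.67) in members and 0.17 (0.12 to 0.22) in the reference. *Krt10*, a keratinocyte keratin, had the highest ratio in members, 3.96 (3.27 to 4.72), and was at 4.16 (3.61 to 4.76) in the reference.

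Genes that differed between the sets also differed between days. *Ccl8* was higher in members by 1.27 (1.20 to 1.35) from Day 3 to Day 7 and by 1.08 (1.04 to 1.11) from Day 7 to Day 14. In the reference its ratios were larger, at 2.26 (1.97 to 2.58) and 1.41 (1.34 to 1.47). *Folr2* differed little between the first 2 libraries, at -0.05 (-0.20 to 0.10) in members and 0.02 (-0.24 to 0.29) in the reference. From Day 7 to Day 14 its ratio was 0.55 (0.45 to 0.65) in members and -0.18 (-0.34 to -0.03) in the reference. *Stab1* was at 0.12 (-0.01 to 0.25) and then -1.43 (-1.57 to -1.29), the latter close to the reference at -1.42 (-1.55 to -1.28). *Maf* was lower on Day 14 in both, at -1.25 (-1.32 to -1.18) in members and -1.72 (-1.79 to -1.64) in the reference. *Hmox1* had a smaller drop in members than in the reference from Day 7 to Day 14, at -0.39 (-0.45 to -0.33) against -1.50 (-1.56 to -1.44), and *Retnla* was higher by 2.31 (2.21 to 2.41) against 3.62 (3.57 to 3.68). None of these differences between members and reference in their change over days has a test, since each day was 1 library.

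**Figure D5:**
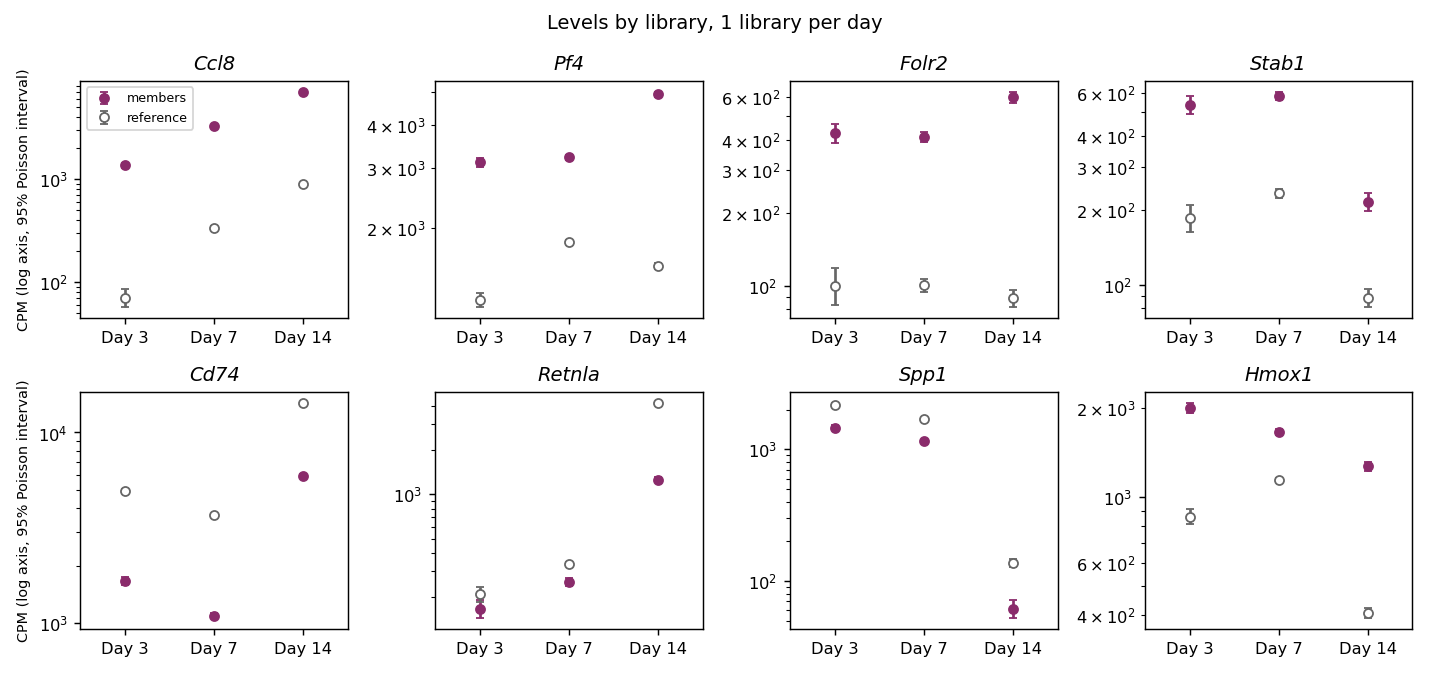
CPM (log axis) of 8 genes in members (filled) and reference macrophages (open) of the Day 3, Day 7 and Day 14 libraries, with exact 95% Poisson intervals for counting error. *Ccl8* in members was at 1349.9 CPM, 3260.4 CPM and 6881 CPM, and *Spp1* at 1463 CPM, 1156 CPM and 61.6 CPM.

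Macrophages with 3 or more *Arg1* UMIs and none of the 3 rule genes, which the gate set aside, numbered 241 on Day 3, 669 on Day 7 and 1 on Day 14. Their values for Days 3 and 7 were set beside the members, with no test. *Mrc1* was at 528 and 848 CPM in them, 1658 and 2699.8 in members and 734 and 901 in the reference. *Gas6* was at 58.9 and 97.9, against 484 and 824 in members, and *Ednrb* at 68.3 and 71.9 against 401 and 616. The *Arg1* cells were thus near the reference or below it for these genes. Other genes differed from this. *F13a1* was at 1087 and 668 CPM in *Arg1* cells, above the 836 and 542 of the reference. *Folr2* (153 and 97.5 against 99.2 and 101) and *Stab1* (246 and 215 against 186 and 235) were above the reference on Day 3 only. *Hmox1* was at 1667 and 2938 CPM in *Arg1* cells, 2004 and 1664 in members and 857 and 1144 in the reference. *Spp1* was at 5274 and 3509 CPM in them and 1463 and 1156 in members, and *Il1b* at 2196 and 615 in them and 486 and 287 in members. *Cd74* and *H2-Aa* were below the reference in the *Arg1* cells as well as in members. *Cd74* was at 1100.0 and 1219 CPM in them, 1657 and 1090.2 in members and 4955 and 3692 in the reference. *H2-Aa* was at 612 and 809 CPM in *Arg1* cells, 801 and 794 in members and 2882 and 2887 in the reference. *Pf4* was at 3132 and 4538 CPM in *Arg1* cells and 3116 and 3231 in members, and *Trem2* at 308 and 389 against 259 and 304.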

How the data were processed

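The deposited files hold raw UMI counts per Ensembl gene and cell barcode, with no normalization. Per the labels, the authors made them from 3 prime droplet libraries with Cell Ranger 6.0.0 and the mm10 genome. The sources used here give neither the annotation nor how cells were told from empty droplets. Symbols were matched for 32158 of 32285 genes. Members were chosen by counts of *Lyve1*, *Cd163* and *Cbr2* inside a macrophage gate, and the members, gene lists and tests were chosen with earlier results of these data known. UMIs were summed per library and set into 6 sums and fitted with edgeR 4.0.16 (TMM, quasi-likelihood test, library as a block, genes with at least 10 UMIs in at least 3 sums), with Benjamini-Hochberg adjustment over all tested genes. The 17 rule genes and the mitochondrial genes were not tested. The p-values measure how the difference varied over the 3 libraries, which are 3 days and not replicates of a day. Genes were named from a list of 33, as members of 15 lists, and by size (10 highest and 10 lowest called fold changes with 1 sign in all libraries and at least 50 CPM, 5 and 5 for the other comparisons). Days were compared by ratios with exact intervals. Promoter windows came from RefSeq (GRCm38.p6) and gene positions from GENCODE M21. The members of the 3 libraries held 1127507, 4178873 and 2451417 UMIs in all. Intervals cover counting error only. The test was checked on simulated counts, where 81.2% of 96 genes changed 2-fold were called among 9954 genes for members against reference with 0 false calls, and 82.8% of 99 among 7625 genes with 10 false calls for members with *Lyve1* or *Cd163* against *Cbr2*-only members. In the simulation all genes had the same spread, and a changed gene had the same change on each day. These rates may therefore not hold for the data, where the difference varied between days. Alternatives used DESeq2 1.42.0, other scalings, filters, depths and libraries. Doublets were not called. Some members of the lists are counted but not reported by name here.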

Additional observations from a re-analysis of the deposited data

Results flagged for a closer look

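*Mki67*, a marker of dividing cells, had opposite signs between libraries when members with *Lyve1* or *Cd163* were set against *Cbr2*-only members, with a log2 difference of 2.24 on Day 3 and -1.83 on Day 14 (exact 95% intervals for counting error 0.71 to 4.06 and -2.37 to -1.31). The Day 3 value rests on 15 against 5 UMIs, and on Day 7 the difference was 0.26 (-0.16 to 0.69). *Ccl24* went opposite ways in the 2 sets between Day 3 and Day 7, with a log2 ratio of 1.30 in members and -1.15 in the reference. Neither difference was tested, because each day was 1 library.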

How the results depend on the processing

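With at least 5 UMIs of the 3 rule genes, members were 16.8%, 10.3% and 11.2% of gated macrophages on Days 3, 7 and 14. Thinning to 1000 UMIs gave 2.22%, 4.91% and 4.02%. Without the limit on *Arg1* the share was 24.2% on Day 3 and 18.4% on Day 7, and with at least 2000 UMIs per cell it was 22.1% on Day 7 and 22.4% on Day 14. For members against reference, scaling by total UMIs gave 872 genes higher, DESeq2 280 higher and 439 lower, thinning to 1000 UMIs 160 and 211, and a fit without the library term 7 and 3 (754 at an unadjusted p under 0.05). Leaving out 1 library gave 272 to 867 higher and 443 to 1062 lower, with the fewest higher without Day 7 and the fewest lower without Day 14. Of the 1311 calls, 1013 of the 1281 still tested were called in the same direction with the reference drawn to the members' depth, 719 by DESeq2 and 336 of 980 after thinning. Thinning changed the cells of both sets as well as their depth. For members with *Lyve1* or *Cd163* against *Cbr2*-only members, DESeq2 gave 6 higher and 5 lower, no filter on low counts 75 and 54, at least 2000 UMIs 27 and 17, and leaving out 1 library 7 to 68 and 1 to 50, the fewest without Day 7. *Mki67* changed sign there by DESeq2, at 0.15. Without the 50 most abundant genes, 111 genes were higher and 111 lower on Day 7 than on Day 3. The cause of these shifts was not tested. A filter that removed cells with 2 or more UMIs of other-class markers, fibroblast ones included, left 21, 1 and 0 members and could not be fitted. A different filter, chosen after seeing the data, left the fibroblast markers aside and set a limit of 0.1% of UMIs on the others. The alternatives without the limits on *Arg1* and on *S100a8* and *S100a9* were also chosen after seeing the data. Both sets of a library were paired by the library term of the reported fit. Between days, no paired analysis was possible because each day was 1 library.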
